A study of Mus musculus with 6 samples.

Results

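The genes described here encode the protein components of the cytosolic ribosome. They were taken by name: protein-coding entries called Rpsa, Rplp0, Rplp1 or Rplp2, or Rpl or Rps followed by a digit, leaving out the kinases named Rps6k and the Rps19 binding proteins. That rule took 92 of 78317 annotated entries, 56 of the large subunit and 36 of the small subunit. Of the 92, 77 were classed as core genes, 8 as paralogs and 7 as processed retrocopies that the annotation lists as protein-coding. The paralogs include Rpl10l, whose exon length of 1023 bases fills its whole span without an intron. The family was singled out because its summed share of the libraries was known to differ between the groups, so every difference between the groups given here describes the members and supports nothing further.

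The study sequenced messenger RNA of MCEC, an immortalised line from mouse cardiac endothelium, in 3 libraries of cells with a short hairpin RNA against Fat4 (ShFat4) and 3 libraries of wild-type cells. Fat4 is a giant cadherin of the Hippo and planar cell polarity pathways. The labels say neither if the wild-type cells had a control hairpin nor if replicate libraries are from different cultures, and the spread behind a p-value may thus be technical. The libraries held 10509069 to 11538010 counts in the knockdown and 10305810 to 11870091 in the control. Fat4 itself had 8.5, 10 and 9 counts in the knockdown libraries and 10, 22 and 31.5 in the control libraries. Control library 1 thus lay at the knockdown level of the targeted gene. The Fat4 log2 fold change was -1.17 (SE 0.35, edgeR adjusted p = 0.0330), and its call was lost when any 1 library other than control 1 was left out, with an adjusted p up to 0.205. Of 14 endothelial markers, 9 averaged under 1 CPM (the count scaled to the library's size) in both groups, and Tie1, Vwf, Erg, Cldn5 and Emcn had no count in any library. The other 5 were Cd34, Eng, Egfl7, Flt1 and Esam, the highest being Cd34 at 53.1 CPM in the knockdown and 52.5 CPM in the control. Eng (log2 fold change -0.42, SE 0.11, edgeR adjusted p = 0.0195) and Flt1 (-0.59, SE 0.13, adjusted p = 0.00743) were called lower in the knockdown. The 14 endothelial markers summed to 84.9 to 90.4 CPM in the knockdown and 93.2 to 102.6 CPM in the control. The 7 mesothelial markers summed to 705 to 748 CPM in the knockdown and 870 to 937 CPM in the control, and the 5 fibroblast markers to 1546 to 1685 CPM in the knockdown and 1996 to 2086 CPM in the control, nearly all of it from Col1a1. In these 2 lists Upk3b (-0.42, edgeR adjusted p = 3.67e-04), Wt1 (-0.19, 0.0404) and Col1a1 (-0.38, 6.85e-04) were called lower and 0 genes higher. The 5 cardiomyocyte markers summed to 16.6 to 20.8 CPM in the knockdown and 8.55 to 10.2 CPM in the control, most of it from Myl7, with Myh6 at 0 in every library. Myl7 (0.96, edgeR adjusted p = 2.28e-04) and the scarce Nppb (1.44, 0.00160, mean 2.49 CPM in the knockdown and 0.91 CPM in the control) were called higher and 0 lower. The 4 leukocyte markers summed to 3.53 to 3.90 CPM in the knockdown and 3.18 to 4.18 CPM in the control. Mitochondrially encoded genes took 4.62% ± 0.20 of knockdown and 4.96% ± 0.13 of control counts (SD, n = 3 each). Whether the identity of the cells or these other differences bear on the ribosomal protein genes was not tested.

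A ribosome needs its proteins in equal number, and growing cells spend much of their transcription on them. The messages are short, abundant and stable, and most begin at a cytosine within a pyrimidine run, the terminal oligopyrimidine (TOP) tract, through which mTOR signalling and Larp1 set how actively they are translated. Mammalian genomes also hold many processed copies of these genes, most of them silent, so sequencing reads can match more than 1 place.

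The start-site tract is shown for 5 of the genes described below, picked because their run begins within 4 bases of the annotated start. The windows cover 15 bases before and 15 after the annotated start, from RefSeq promoters on GRCm38.p6, and capitals mark the longest run of a cytosine followed by at least 4 pyrimidines. The Rpl38 window is chr11:114668565-114668594 (+), Rps21 chr2:180257364-180257393 (+), Rps24 chr14:24490663-24490692 (+), Rps27 chr3:90213634-90213663 (-) and Rplp2 chr7:141447636-141447665 (+).
Rpl38: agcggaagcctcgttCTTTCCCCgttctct
Rps21: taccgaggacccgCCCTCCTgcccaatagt
Rps24: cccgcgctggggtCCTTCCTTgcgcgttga
Rps27: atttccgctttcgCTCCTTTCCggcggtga
Rplp2: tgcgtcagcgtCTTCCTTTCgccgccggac
The run begins at the start base itself in Rpl38 and before it in the other windows. Of the 92 members, 66 were found in the RefSeq table, and 44 of them (66.7%) held such a run on the sense strand in the window, as did 10885 of 27025 genes in the whole table (40.3%). Among the core genes with a window, the 37 with the run had a median log2 fold change of 0.27, with 24 called higher, and the 20 without it had a median of 0.20, with 13 called higher. Over all tested genes in the table the medians were -0.027 with and -0.025 without the run. Called higher among these were 321 of 3834 genes with the run and 401 of 5071 without it.

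Ribosomal protein genes took 14.5%, 14.1% and 13.8% of counts in the knockdown libraries, against 13.0%, 12.3% and 11.7% in the control libraries. All 3 knockdown libraries lay above all 3 controls. The large subunit took 8.27% ± 0.21 in the knockdown and 7.31% ± 0.34 in the control, and the small subunit 5.88% ± 0.17 in the knockdown and 5.04% ± 0.31 in the control (SD, n = 3 each). The large subunit's part of the members' own counts was 58.5% ± 0.098 in the knockdown and 59.2% ± 0.34 in the control. In bulk RNA, a change in how many cells express a gene and a change in RNA per cell cannot be told apart. The share is relative to all other messages of a library and says nothing of the absolute amount.

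**Figure D1:**
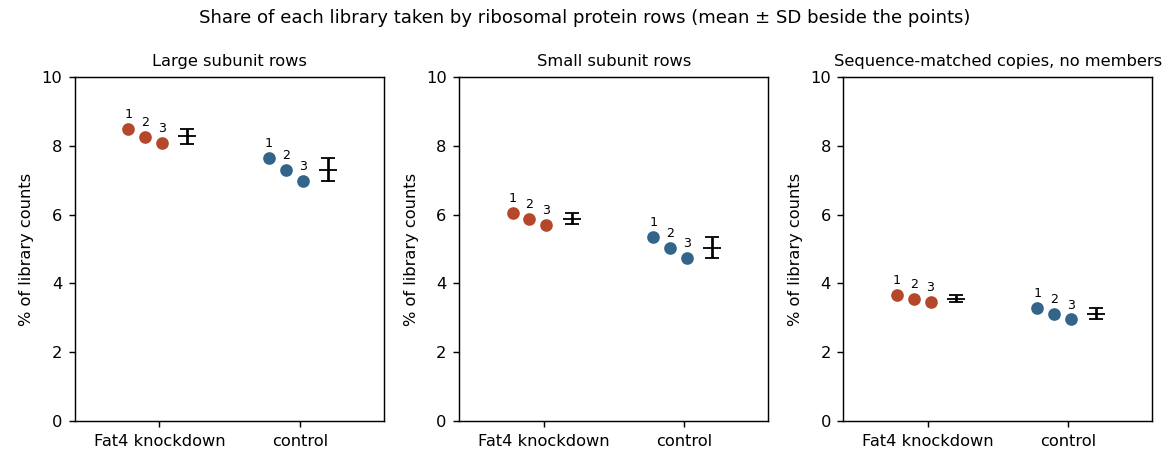
Share of all counts in each library, in percent, taken by the large subunit entries, the small subunit entries and the near-identical copies of the core genes that are not members, with the mean and SD beside the 3 numbered libraries of each group. The knockdown libraries average 8.27% and the controls 7.31% for the large subunit, the knockdown 5.88% and the controls 5.04% for the small subunit, and the knockdown 3.56% and the controls 3.12% for the copies.

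Of the 92 members, 87 had enough counts to be tested among 13372 genes. By edgeR's quasi-likelihood test with Benjamini-Hochberg adjustment over all tested genes, 55 were called higher in the knockdown (adjusted p under 0.05) and 0 lower, where 8.94% of all tested genes were called higher and 8.44% lower. The 55 were 29 of 53 tested in the large subunit and 26 of 34 in the small subunit. No member was lower at an unadjusted p under 0.05 by edgeR, DESeq2 or limma-voom, and DESeq2 and limma-voom each called 58 higher. All 3 knockdown libraries lay above all 3 controls for 69 members and below them for 0, against 17.4% and 17.5% of all tested genes. Since the family was picked on this contrast, nothing is read from these shares.

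The differences were small in size. The median log2 fold change was 0.25, a 1.19-fold difference, while the median over all tested genes was -0.01. It was 0.22 in the large subunit and 0.29 in the small subunit. The members ranged from -0.24 for Rpl29 to 0.63 for Rpl41, 85 were above 0 (79 with library-size scaling), and 15 of the called members exceeded 1.3-fold and 0 exceeded 1.5-fold. The calls depended on single libraries: leaving out control 2 left 10 large and 14 small subunit calls, leaving out knockdown 1 left 12 and 16, leaving out knockdown 2 left 13 and 14, and leaving out control 3 left 22 and 17. Leaving out control 1, the library with the low Fat4 count, gave 36 and 27. The share of all tested genes called higher moved in the same fits, from 8.94% with all libraries. It was 3.87% without control 2, 4.49% without knockdown 1, 4.10% without knockdown 2, 4.62% without control 3 and 11.9% without control 1. The same 19 of the 55 called genes were called in every setting that tested them, setting aside the one with copies added. Among them were Rpl5, Rpl9, Rpl9-ps6, Rpl17, Rpl27a, Rpl32, Rpl34 and Rpl39 in the large subunit, and Rps3, Rps7, Rps12, Rps14, Rps15a, Rps18, Rps18-ps6, Rps20, Rps21 and Rps27 in the small subunit.

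**Figure D2:**
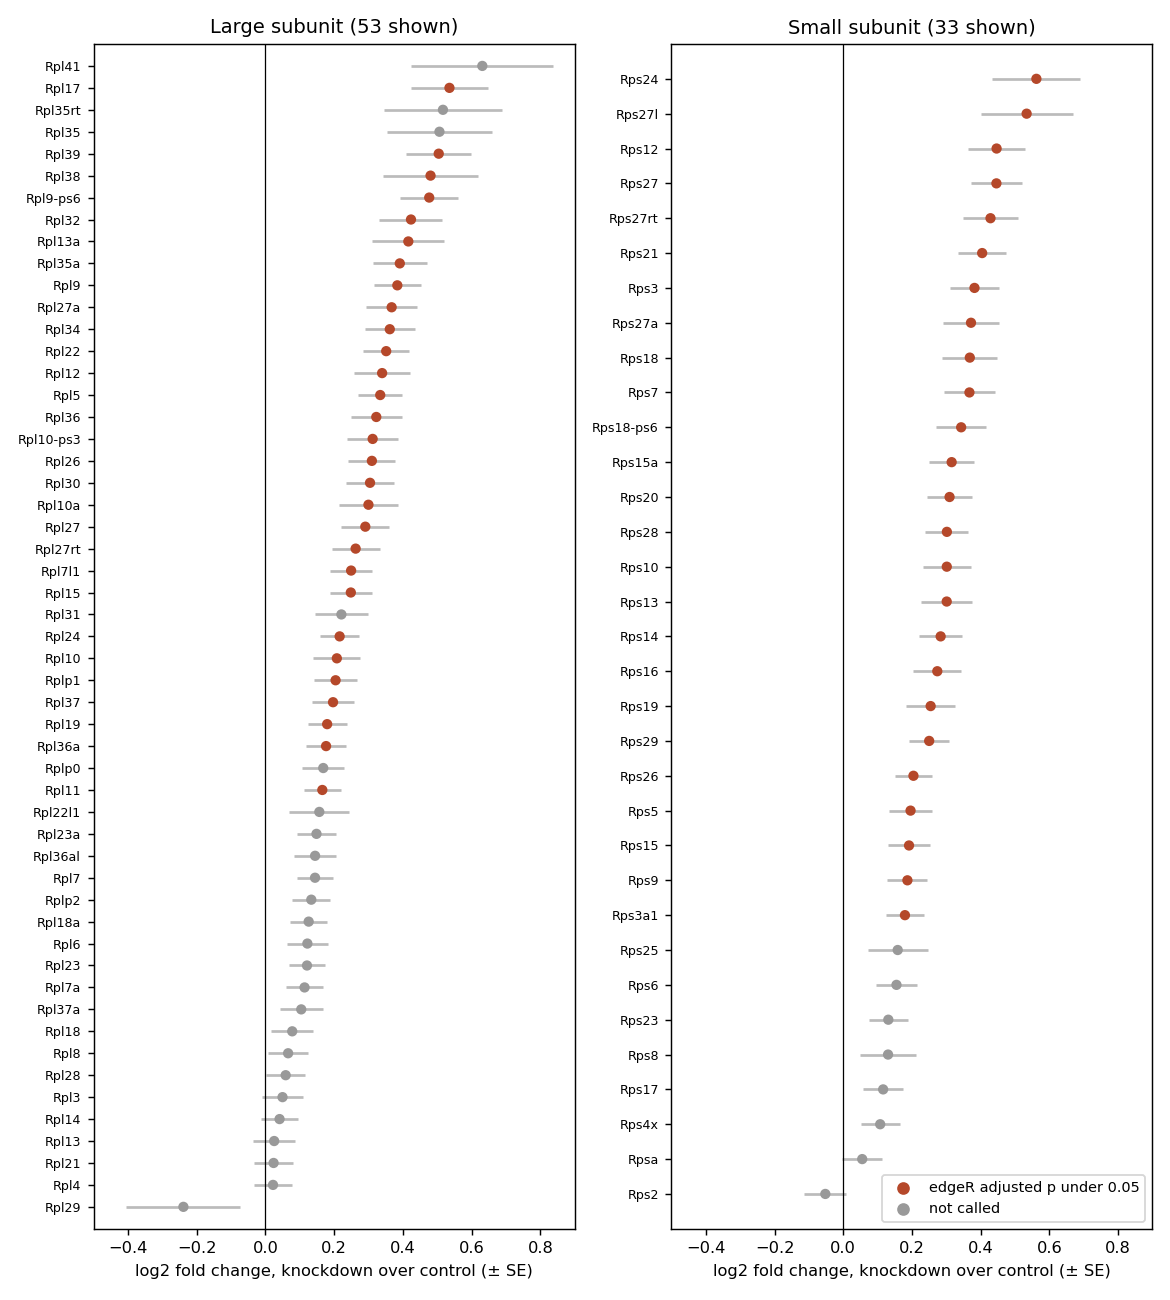
Log2 fold change, knockdown over control, of the tested large and small subunit genes shown, with its SE as a bar. Members with an edgeR adjusted p under 0.05 are in red. All but Rpl29 and Rps2 lie above 0 (8 lie below it with library-size scaling), and no called member lies below it.

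Among large subunit genes the largest called rises were in Rpl17, Rpl39, Rpl38 and the retrocopy Rpl9-ps6. Rpl17, which lies at the peptide exit tunnel, had 898, 946 and 791 CPM in the knockdown and 715, 593 and 510.1 CPM in the control (log2 fold change 0.54, SE 0.11, edgeR adjusted p = 0.0111). Rpl39, a very small protein inside the exit tunnel, had 879, 856 and 875 CPM in the knockdown and 728, 588 and 524 CPM in the control (0.50, SE 0.09, adjusted p = 0.00399). Rpl38, which in mice is needed for normal axial skeleton patterning, had 1293, 1258 and 1286 CPM in the knockdown and 1145, 857 and 749 CPM in the control (0.48, SE 0.14, adjusted p = 0.0491). In all 3 genes the groups did not overlap, and control 1 was the highest control and control 3 the lowest. The Rpl38 call was lost without any 1 of the knockdown libraries or control 2 and with DESeq2, and its adjusted p reached 0.129 over 23 other settings, with log2 fold changes of 0.32 to 0.67.

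Rpl41 and the Rpl35 pair had differences as large without a call, and were named after their values were seen. Rpl41 codes for the smallest of the ribosomal proteins, and its whole coding sequence, stop codon included, is shown because it sits at the short end of the length pattern described below (GENCODE M21, GRCm38, chromosome 10).
Rpl41: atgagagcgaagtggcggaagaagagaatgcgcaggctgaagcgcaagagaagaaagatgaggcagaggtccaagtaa
Rpl41 had 3322, 3431 and 3103 CPM in the knockdown and 2698, 2106 and 1560.4 CPM in the control. The groups did not overlap, but the controls spread widely, and the log2 fold change of 0.63 (SE 0.21) had an edgeR adjusted p of 0.109. It passed in 7 of 23 other settings. With all libraries these were DESeq2, limma-voom, protein-coding rows only, the replicate block and the fit that is not robust. It also passed without control 1 or without control 3, with log2 fold changes of 0.84 and 0.45. The adjusted p ran from 1.8e-04 to 0.275 over the 23 settings. Rpl35 (log2 fold change 0.51, edgeR adjusted p = 0.0656) and its retrocopy Rpl35rt (0.52, adjusted p = 0.0970) likewise passed without control 1 (0.69 and 0.72) or control 3 (both 0.37), and in no other fit that left out 1 library. In all, Rpl35 passed in 9 of 23 and Rpl35rt in 8 of 22 other settings, among them limma-voom but not DESeq2.

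The genes of the ribosomal stalk, whose proteins recruit the translation factors that use GTP, lay below the median of the family. Rplp1 had 5508, 5256 and 4728 CPM in the knockdown and 4277, 4701 and 4471 CPM in the control, a difference that was called (log2 fold change 0.20, SE 0.06, edgeR adjusted p = 0.0367). Its lowest knockdown library was close to its highest control, and the call was lost without any 1 library other than knockdown 3, with an adjusted p up to 0.165 in those fits. The call was also lost with library-size scaling and with every offset for length. Over 23 other settings the log2 fold change of Rplp1 fell as low as 0.038 and its adjusted p reached 0.7895. Rplp0 (0.17, adjusted p = 0.0661) and Rplp2 (0.13, adjusted p = 0.107) were not called, although their groups did not overlap. Rplp0 passed in 4 of 23 other settings: upper-quartile scaling, DESeq2, protein-coding rows only and without knockdown 3 (0.22, adjusted p = 0.0344 in the last). Rpl5 and Rpl11 enter the large subunit together with its smallest RNA and, when free, bind the p53 regulator Mdm2. Rpl5 had 3148, 3032 and 2961 CPM in the knockdown and 2648, 2375 and 2229 CPM in the control (0.33, SE 0.06, adjusted p = 0.00296) and was called in each of 23 other settings. Rpl11 had 1607, 1588 and 1619 CPM in the knockdown and 1439, 1449.8 and 1403 CPM in the control (0.17, SE 0.05, adjusted p = 0.0433), and its call was lost without any 1 library other than control 1, with an adjusted p up to 0.151 in those fits. Over 23 other settings the adjusted p of Rpl11 reached 0.441. These 2 were named for their role after their values were seen.

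In the small subunit the largest called rises were in Rps24, Rps27l, Rps12 and Rps27. Rps24, which is mutated in some patients with Diamond-Blackfan anaemia, had 2227, 2267 and 2063 CPM in the knockdown and 1798, 1441 and 1203 CPM in the control (log2 fold change 0.56, SE 0.13, edgeR adjusted p = 0.0201). Its groups did not overlap. Its call was lost without knockdown 1, knockdown 2 or control 2, with an adjusted p up to 0.0629 and log2 fold changes of 0.55, 0.54 and 0.54. Rps12 had 3693, 3513 and 3201 CPM in the knockdown and 2904, 2485 and 2249 CPM in the control (0.45, SE 0.08, adjusted p = 0.00336). Rps27, a zinc finger protein of the small subunit, had 1632, 1709 and 1469.7 CPM in the knockdown and 1303, 1156 and 1073 CPM in the control (0.45, SE 0.07, adjusted p = 0.00117). Both genes were called in each of 23 other settings, with adjusted p up to 0.0250 for Rps12 and 0.0176 for Rps27, and neither had overlapping groups.

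Other small subunit genes were named for their role after their values were seen. Rps3, which helps form the entry of the mRNA channel, had a log2 fold change of 0.38 (SE 0.07, edgeR adjusted p = 0.00251), and Rps14, whose loss features in a human myelodysplastic syndrome, one of 0.28 (SE 0.06, adjusted p = 0.00647). Both kept their call in each of 23 other settings. Rps19, the gene most often mutated in Diamond-Blackfan anaemia, was called (0.25, SE 0.07, adjusted p = 0.0232) but not without knockdown 1, knockdown 2, control 2 or control 3 (adjusted p up to 0.119). Rps6, the substrate of the S6 kinases, had 461, 425 and 420.4 CPM in the knockdown and 378, 410.1 and 385 CPM in the control, and was not called (0.15, SE 0.06, adjusted p = 0.0834). Of 23 other settings, Rps6 passed in 2, both of which added counts of its copies. These were named pseudogenes added and near-identical copies added (0.19, adjusted p = 0.0323 with the latter, a fit chosen after seeing the data). Rps2 was the small subunit gene with a negative value, 1797, 1606 and 1777 CPM in the knockdown and 1707, 1812 and 1852 CPM in the control, groups that overlapped (-0.05, SE 0.06, adjusted p = 0.609).

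Levels of different genes were compared per kilobase of annotated exon, scaled to the same total in each library (TPM). By that scale Rplp1, Rpl36 and Rpl23a were the most abundant large subunit messages and Rps21, Rps15 and Rps3a1 the most abundant of the small subunit. Rplp1 averaged 17055 ± 936 TPM in the knockdown and 16297 ± 1296 TPM in the control, and Rpl36 7595 ± 355 TPM in the knockdown and 6656 ± 422 TPM in the control (SD, n = 3 each). Rps21 averaged 7156 ± 227 TPM in the knockdown and 5929 ± 303 TPM in the control. The order depends on which length is used: per kilobase of coding sequence, Rpl41 came first with 36046 CPM and Rplp1 followed with 14103 CPM, averaged over the 6 libraries. Of the 6 genes most abundant by TPM, Rps21 had the largest rise (log2 fold change 0.40, SE 0.07, edgeR adjusted p = 0.00146) and was called in each of 23 other settings. Rpl36 was called (0.32, SE 0.07, adjusted p = 0.00769) but not without knockdown 1 (adjusted p = 0.0526) or control 2 (0.0519), its adjusted p reaching 0.110 over 23 settings. Rps15 (0.19, adjusted p = 0.0443) and Rps3a1 (0.18, adjusted p = 0.0325) lost their call without any 1 library other than control 1 (adjusted p up to 0.218 and 0.169 in those fits), and reached 0.561 and 0.734 over all 23 other settings. Rpl23a, with 0.15 (adjusted p = 0.0882), passed without control 1 (0.20, adjusted p = 0.0217) and with the replicate block.

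The control libraries stood apart from each other across the family. Control 1 was the highest control for 75 of 87 members and control 3 the lowest for 76, where over all tested genes the same held for 38.0% and 36.0%. Measured as log2 CPM minus the mean over all 6 libraries, the median member stood at 0.18, 0.15 and 0.07 in the knockdown libraries and at -0.02, -0.12 and -0.25 in the controls. Knockdown 1 was the highest knockdown library for 57 of 87 members. The distance between the lowest knockdown and the highest control was thus smaller, at the median member, than the distance between controls 1 and 3. Control 1, whose Fat4 count of 10 equals that of a knockdown library, is the control nearest to the knockdown libraries on this measure, and whether the 2 facts are related was not tested.

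**Figure D3:**
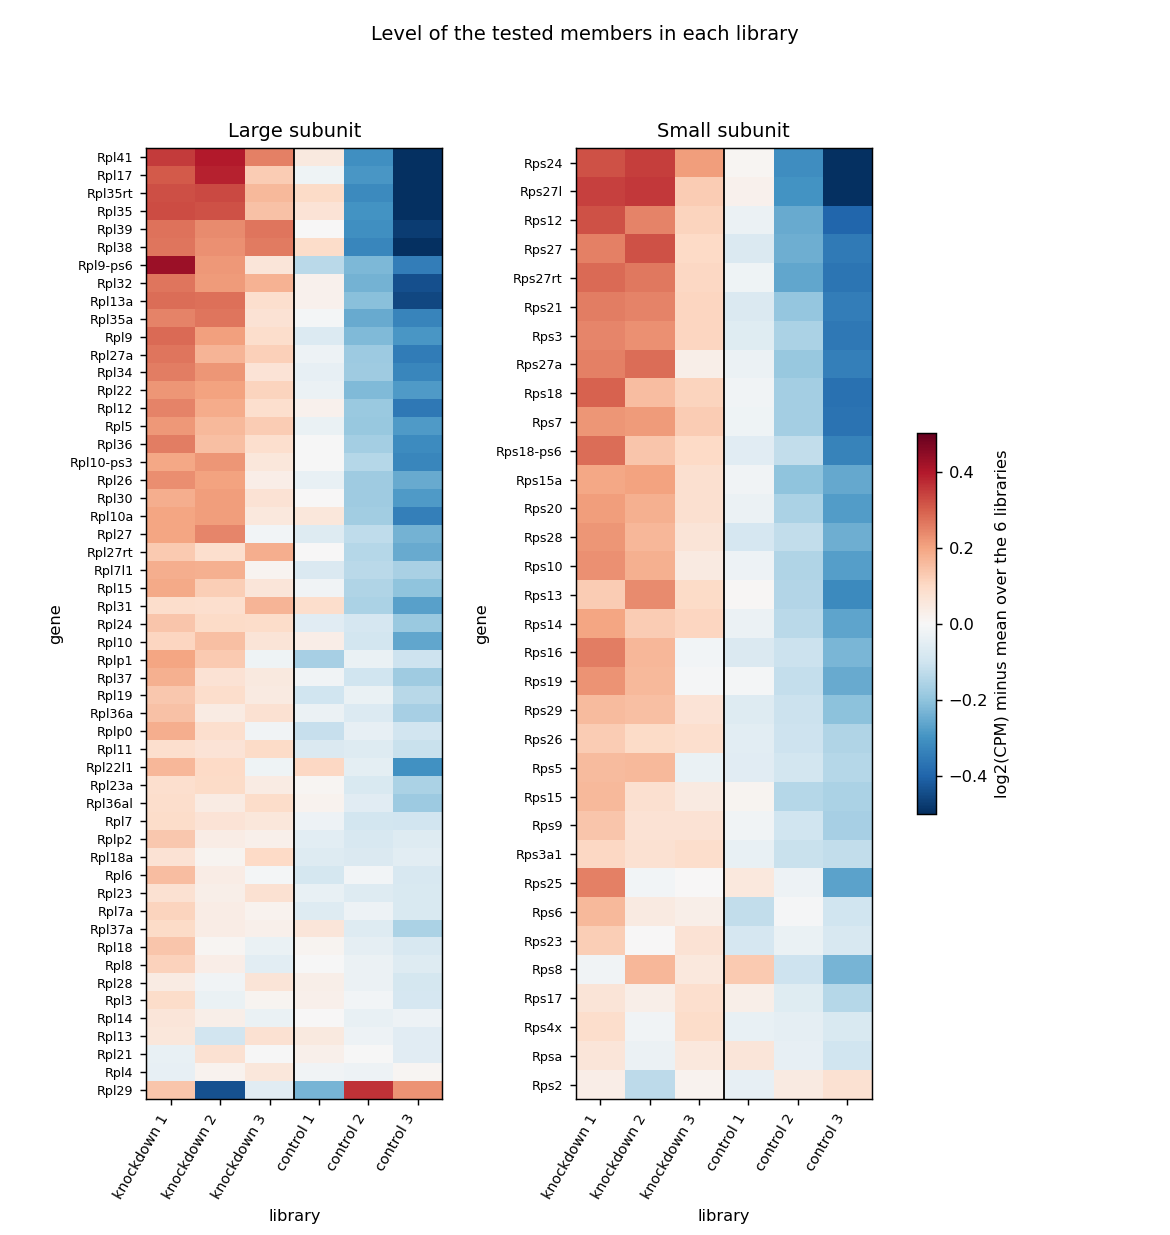
Log2 CPM of the tested members shown in each library minus its mean over the 6 libraries, with colours capped at 0.5 in either direction and members ordered by fold change within each subunit. Knockdown libraries are left of the line, and in most rows control 1 is the palest control and control 3 the bluest.

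Shorter messages had the larger differences. Among the core genes, 9 had a coding sequence of at most 300 bases, and 7 of them were called higher, with a median log2 fold change of 0.40. The 45 between 300 and 600 bases had a median of 0.29 with 32 called, and the 23 of 600 bases or more had a median of 0.14 with 9 called. Over all tested genes of any length 8.94% were called higher, and the share among other genes of these lengths was not taken. Spearman's rho of fold change with coding length was -0.46 across the 77 core genes and -0.32 across the 10920 tested genes that have one. These are descriptions across genes of the same 6 libraries, and genes are not independent replicates. When per-library trends in GC content and main transcript length, fitted over all genes, were taken out, rho was -0.23 for the core genes and -0.10 for all genes. With that correction, chosen after seeing the data, 31 members were called higher, 16 of the large and 15 of the small subunit, and 0 lower, while 6.12% of all tested genes were called higher in that fit, against 8.94% without the correction. The medians were then 0.10 for the large and 0.17 for the small subunit, with 17 members below 0. Among the genes named here, Rplp1, Rpl10, Rpl10-ps3, Rpl11, Rpl22, Rps3a1, Rps15, Rps27a, Rps27rt, Eif3h, Pdcd2 and Fat4 lost their call under it. Rpl36a, which was called at 0.18 (edgeR adjusted p = 0.0494) and lost that call without any 1 library other than control 1 (adjusted p up to 0.210), changed sign to -0.06 (adjusted p = 0.557).

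**Figure D4:**
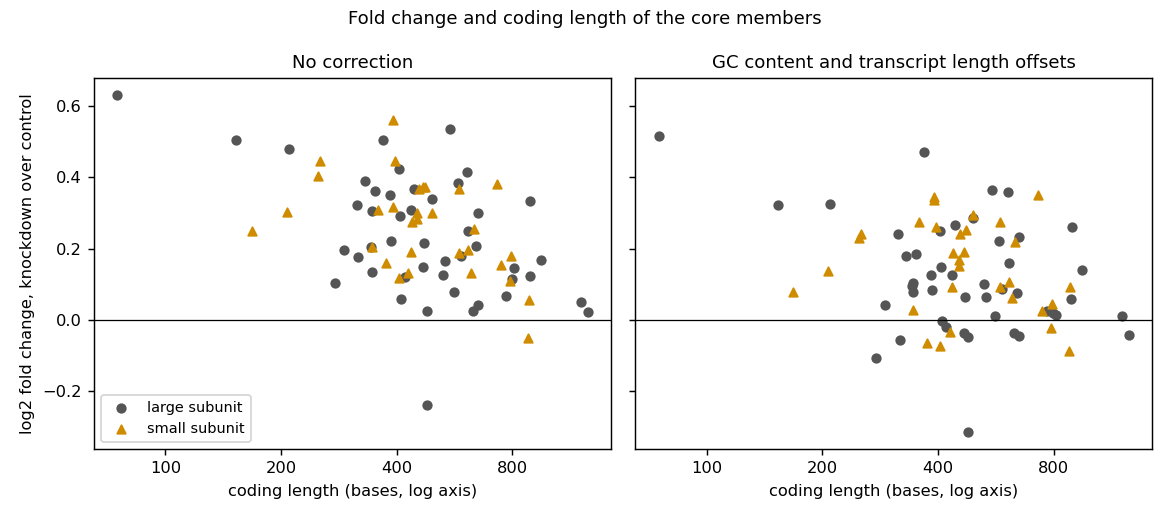
Log2 fold change, knockdown over control, of the 77 core genes against coding length in bases (log axis), without correction at left and with GC content and transcript length offsets at right. Without correction Rpl41 lies highest at the short end, and the median is 0.40 up to 300 bases and 0.14 from 600 bases.

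Paralogs are given beside their partners, and no difference within a pair was tested. Rpl22 and Rpl22l1 bind RNA and replace each other in the ribosome. Rpl22 had 1025, 1010.4 and 951 CPM in the knockdown and 862, 756 and 724 CPM in the control (log2 fold change 0.35, SE 0.07, edgeR adjusted p = 0.00283). Rpl22l1 had 360.3, 344 and 317 CPM in the knockdown and 345, 311 and 260.3 CPM in the control, overlapping groups without a call (0.16, SE 0.09, adjusted p = 0.246), though it passed without control 1 (0.26, adjusted p = 0.0164). Rpl22l1 took 25.5% ± 0.53 of the pair's counts in the knockdown and 28.1% ± 1.43 in the control (SD, n = 3 each), and those groups did not overlap. Rpl7l1, which acts in the nucleolus in ribosome assembly, was called (0.25, SE 0.06, adjusted p = 0.0114), but not without knockdown 1, knockdown 2 or control 2 (adjusted p up to 0.0701). Its partner Rpl7 was not called (0.14, SE 0.05, adjusted p = 0.0756). Rpl7 passed in 3 of 23 other settings: DESeq2, the replicate block and without control 1 (0.17, adjusted p = 0.0392 in the last). Rpl36al had 0.14 (adjusted p = 0.121) and passed without control 1 (0.19, adjusted p = 0.0255). Rpl3 (0.05, adjusted p = 0.613) and Rps4x (0.11, adjusted p = 0.205) were not called in any of 23 other settings.

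Among the paralogs, 4 failed the filter on low counts. Rpl3l, the striated muscle form of Rpl3, had 0, 1 and 1 counts in the knockdown and none in the control libraries, where a count of 0 allows up to 3 counts, or 0.24 to 0.29 CPM. Rpl10l and Rpl39l, both known from male germ cells, had 3 to 7 and 2 to 5 counts in the knockdown and 1.5 to 9.5 and 3 to 4 in the control. Rps4l had 3 to 10 counts in the knockdown and 2 to 7 in the control. The retrocopy Rps23rg1 had at most 2.67 counts in the knockdown and 6.75 in the control and was also not tested.

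Rps27l, a p53 target gene that codes for another form of Rps27, is the paralog that was most abundant beside its partner. It had 1279, 1291 and 1102 CPM in the knockdown and 1024, 820.5 and 693 CPM in the control (log2 fold change 0.53, SE 0.13, edgeR adjusted p = 0.0298). Its groups did not overlap, and its call was lost without knockdown 1, knockdown 2 or control 2, with an adjusted p up to 0.0890 and log2 fold changes of 0.50, 0.49 and 0.51. The coding sequences of Rps27 (chromosome 3) and Rps27l (chromosome 9) are shown because they are different enough for reads to be told apart, unlike those of the retrocopies (GENCODE M21, GRCm38, stop codon included). Capitals in the sequence of Rps27l mark the 61 of 255 bases at which it differs from Rps27.
Rps27: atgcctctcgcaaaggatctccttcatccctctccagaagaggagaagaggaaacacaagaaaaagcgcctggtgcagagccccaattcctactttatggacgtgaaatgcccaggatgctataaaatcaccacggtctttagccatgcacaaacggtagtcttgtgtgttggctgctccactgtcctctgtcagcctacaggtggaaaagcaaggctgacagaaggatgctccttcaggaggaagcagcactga
Rps27l: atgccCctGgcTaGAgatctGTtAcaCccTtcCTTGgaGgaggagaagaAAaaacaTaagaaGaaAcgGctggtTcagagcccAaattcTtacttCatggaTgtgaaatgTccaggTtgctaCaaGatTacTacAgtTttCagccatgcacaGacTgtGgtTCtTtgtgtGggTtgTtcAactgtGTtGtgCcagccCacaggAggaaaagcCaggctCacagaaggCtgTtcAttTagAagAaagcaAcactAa
Rps27l took 43.3% ± 0.57 of the counts of this pair in the knockdown and 41.6% ± 2.39 in the control (SD, n = 3 each), and the groups overlapped.

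The retrocopies could not be separated from their parent genes in the same way. Rps27rt has no base different from Rps27 over 255 coding bases, Rpl10-ps3 none different from Rpl10 over 645, Rpl35rt and Rpl9-ps6 each 1, and Rps18-ps6 4 of 459. Some values lay close to those of the parent: Rps27rt had a log2 fold change of 0.43 and Rps27 one of 0.45, Rpl35rt 0.52 and Rpl35 0.51, and Rps18-ps6 0.34 and Rps18 0.37. Rpl10-ps3 and Rpl9-ps6 lay further above their parents. Rpl10-ps3 had 0.31 (edgeR adjusted p = 0.0103) and Rpl10 0.21 (adjusted p = 0.0458). Rpl10 lost its call without any 1 library other than control 1 (adjusted p up to 0.216), and Rpl10-ps3 without knockdown 1, knockdown 2 or control 2 (up to 0.0647). Rpl35rt held 48.0% ± 0.17 of the counts of the pair in the knockdown and 47.7% ± 0.50 in the control, close to an even split. No source used here says how reads that match both were divided, so the values of such pairs are uncertain. The same holds for Rpl9-ps6, which had 209.7, 181 and 162 CPM in the knockdown and 142, 133 and 122.7 CPM in the control (0.48, SE 0.08, edgeR adjusted p = 0.00232). Its parent Rpl9 had a log2 fold change of 0.38.

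**Figure D5:**
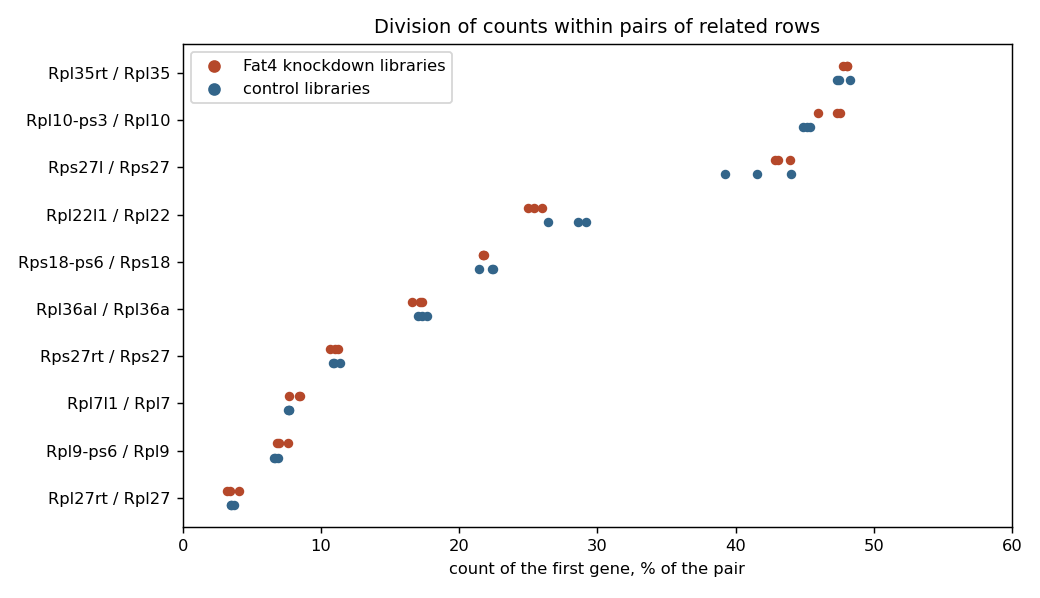
Count of the first gene as a percentage of the counts of both genes of a pair, 1 point per library, for pairs of paralogs or of a retrocopy with its parent. The knockdown libraries are above the control libraries in each row, and the groups stand apart for Rpl22l1 beside Rpl22, at 25.5% in the knockdown and 28.1% in the control, and for Rpl10-ps3 beside Rpl10, at 46.9% in the knockdown and 45.1% in the control.

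Most member counts were not whole numbers. Of 548 nonzero member values, 498 (90.9%, tolerance 1e-06) were not whole numbers, against 29.0% over all entries. What made them fractional was not tested. The fractional part, what rounding down leaves of a count, is by definition below 1 count in a library. Its percentage thus follows mainly how low the count is, and it does not measure how many reads were shared. It was under 1% of the count in each tested member, highest in Rpl29 at 0.598%. It was 12.2% in the untested Rps23rg1, 3.45% in Rpl10l and 2.56% in Rpl39l. A search found 629 entries with at least 95% identity to 1 of 76 core genes over at least 0.5 of the copy's length, and 624 of them were no members. These 624 took 3.56% ± 0.099 of knockdown and 3.12% ± 0.16 of control counts (SD, n = 3 each), a ratio of 1.14, as against 1.15 for the members. Rpl21 had the most copies, 62, and Rpl7a had 39. For Rpl29, 31 copies averaged 3211 counts while its own entry averaged 74.4, so 97.7% of the counts that could belong to Rpl29 lay elsewhere. Rpl29 was the member with the lowest fold change (-0.24, SE 0.17, edgeR adjusted p = 0.356), and with its copies added the value was 0.10 (adjusted p = 0.228). For Rpl34, Rpl10 and Rpl35 the copies held 62.8%, 55.9% and 50.8% of the counts. With the counts of copies added to the gene they match, 52 of 82 tested members were called, 27 of the large and 25 of the small subunit, with medians of 0.22 and 0.29. In that fit 8.82% of all tested genes were called higher.

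Genes that share the TOP tract or act beside the ribosomal proteins were examined from lists chosen with earlier results of these data known. Rps27a, which encodes ubiquitin fused to a small subunit protein, was called (log2 fold change 0.37, SE 0.08, edgeR adjusted p = 0.00710). The ribosome components Fau (0.23, adjusted p = 0.0535) and Rack1, a scaffold on the small subunit (0.10, adjusted p = 0.305), were not called. Fau passed in 9 of 23 other settings, among them DESeq2, limma-voom and the fit without control 1 (0.33, adjusted p = 0.00109 in the last). The 20 other genes known for a TOP tract had a median of 0.08, with 5 higher and 1 lower. Over all tested genes 8.94% were called higher and 8.44% lower. Btf3 and Naca, the subunits of the complex that shields new chains at the ribosome, had 0.40 (adjusted p = 0.00124) and 0.34 (adjusted p = 0.00206), and Eif3e, an initiation factor subunit, had 0.38 (adjusted p = 0.00196). All 3 were called in each of 23 other settings. The other higher genes were the elongation factor Eef1b2 (0.26) and Eif3h (0.20), and the lower one was Eif3a (-0.27, SE 0.09, adjusted p = 0.0457), named after their values were seen. Eef1b2 lost its call without knockdown 2, control 2 or control 3 (adjusted p up to 0.0540), Eif3h without knockdown 1, knockdown 2, control 2 or control 3 (up to 0.111), and Eif3a without any 1 library other than knockdown 2 (up to 0.154). The elongation factors Eef1a1 (0.12) and Eef2 (-0.14) were not called.

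Of 7 chaperones that escort single ribosomal proteins, 2 were called higher and 0 lower, with a median of 0.12. The shares over all tested genes were 8.94% higher and 8.44% lower, and nothing is read from counts in so short a list. Ltv1, which acts in small subunit assembly around Rps3, had 39.5, 44.6 and 41.3 CPM in the knockdown and 35.7, 30.4 and 30.6 CPM in the control (log2 fold change 0.38, SE 0.08, edgeR adjusted p = 0.00517). Pdcd2, the chaperone of Rps2, had 36.3, 36.3 and 36.2 CPM in the knockdown and 34.2, 29.8 and 24.3 CPM in the control (0.31, SE 0.10, adjusted p = 0.0392). The Pdcd2 call was lost without any 1 library other than control 1 (adjusted p up to 0.192). Of 14 regulators of these messages, among them Larp1, Mtor, the Tsc genes and Myc, 0 were called in either direction by edgeR, DESeq2 or limma-voom, and 3 were lower and 0 higher at an unadjusted p under 0.05 by each of these tools. Their median was -0.06. Larp1 had -0.01 (SE 0.06) and Myc 0.07 (SE 0.07).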

How the data were processed

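Messenger RNA of 3 Fat4 knockdown and 3 wild-type control libraries of MCEC cells was converted to cDNA, tagmented and amplified, per the labels' protocols. Per the submitters' processing notes, the GRCm39 genome and STAR 2.7.11, SAMtools 1.22.1, fastp 0.24.0, MultiQC 1.32 and FastQC 0.12.1 were used. The read counter, its strand mode and its gene annotation were not given in the sources used here. Deposited by the authors were estimated counts per gene, of which 29.0% of nonzero values are not whole, an exon length per gene, and CPM values that equal count over library total. The table has 78409 rows, 92 of them spike-ins, which were left out.

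Counts were rounded, filtered with filterByExpr, scaled by TMM and tested with edgeR 4.0.16 (robust glmQLFit and glmQLFTest, R 4.3.3), knockdown over control, without a block, over 13372 genes at a Benjamini-Hochberg adjusted p under 0.05. An adjusted p comes from that test unless its sentence names another fit or a range over other settings, which include DESeq2 and limma-voom. CPM values use TMM-scaled totals. No 2 libraries of the same group agreed within sampling noise. Same-numbered libraries did not deviate together. The workflow was tested on simulated counts. Copies were found with blastn 2.17.0, and coding sequences and main transcripts are from GENCODE M21, matched by gene identifier. Alternatives were scaling by RLE, by upper quartiles, by library size alone or without ribosomal and mitochondrial genes, DESeq2 1.42.0, limma-voom (limma 3.58.1), no filter, at least 10 CPM in 3 libraries, rounding down, protein-coding or whole-number rows only, pseudogenes added, GC and exon length offsets (mgcv 1.9.3), a replicate block and each library left out. Offsets with main transcript length, copies added and a fit that is not robust were chosen after seeing the data.

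The members and lists were chosen with earlier results of these data known. Named in each subunit were the 3 highest levels per length, the 4 largest called rises and falls whose groups did not overlap, all paralog pairs, the stalk genes, the 3 largest fractional parts and the untested members. Up to 3 called genes of each pathway list and Fat4 were added. Some genes that this rule takes are not reported here.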

Additional observations from a re-analysis of the deposited data

How the results depend on the processing

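No member of either subunit was called lower under any setting. Called higher were 29 large and 26 small subunit genes, and leaving out 1 library gave 10 to 36 and 14 to 27. Offsets for GC content and main transcript length, chosen after seeing the data, gave 16 and 15 calls, moved the medians from 0.22 and 0.29 to 0.10 and 0.17, and reversed Rpl36a to -0.058. Fat4 lost its call at log2 fold changes of -1.04 with limma-voom, -1.04 with GC content and exon length offsets and -0.97 with main transcript length offsets, and its value ran from -1.44 to -0.82 when 1 library was left out. Under every other setting that tested members, the medians ran from 0.16 to 0.28 and from 0.22 to 0.34. The summed share stayed higher in the knockdown by 0.80 to 1.16 points for the large and 0.689 to 0.9997 points for the small subunit. Scaling by library size shifted the median of all genes to -0.069, against -0.01 with TMM, so that 32.9% rather than 51.4% of all calls were higher, and left 23 and 21 member calls. Leaving out 1 library moved the calls over all genes between 1029, without control 2, and 3077, without control 1, from 2324. DESeq2 called 1535 genes in all. The replicate numbers did not pair the libraries: correlations of same-numbered libraries' deviations were -0.21, -0.05 and -0.05. With the replicate block, 34 large and 26 small subunit genes were called. Restricting the table to whole-number rows left no member, so it gave no value. Except where fewer libraries or tested genes are the alternative itself, the cause was not tested. Depth limits the untested paralogs, whose counts reach 10 at most in a library, and intervals from counts of 0 cover counting error only.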
